A study of Mus musculus with 217 samples.

Results

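Microglia, the resident macrophages of the brain, were followed through 38 genes, chosen by name: 11 genes of homeostatic (surveying) microglia, 13 genes shared by myeloid cells (pan-myeloid), 5 complement components and 9 genes of activated microglia. All 38 symbols matched 1 gene each among the 54532 genes in the deposited tables, and all 38 were tested in every comparison. They were measured by bulk RNA sequencing in striatum and cortex of LacQ140 mice, a regulatable model of Huntington's disease (HD).

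In LacQ140 mice 1 huntingtin allele (named 140Q, which is not a measured length) carries an expanded CAG repeat behind Lac operator sequences. Every mouse in the study, controls included, carries the beta-actin-LacIR transgene, a Lac repressor driven by the ubiquitous beta-actin promoter, on a C57BL/6 background. Without the inducer IPTG the repressor holds mutant huntingtin (mHtt) low, and with IPTG the allele is expressed. LacQ140 mice had IPTG throughout, from embryonic day 5. LacQ140_A mice never had IPTG (mHtt lowered from conception). LacQ140_2M and LacQ140_8M mice had it until 2 or 8 months of age. The LacQ140 arms were Hdh(LacO-140Q/+), and the controls were Hdh(LacO-+/+), without the expanded repeat, and had either no IPTG (WT) or IPTG throughout (WT+IPTG). Tissue was taken at 6 and 12 months (LacQ140_8M at 12 months only), which gave 107 striatum and 110 cortex libraries from 110 mice, of which 107 gave both tissues. Each arm had 10 mice per tissue and age, 5 of each sex, except WT, LacQ140 and LacQ140_8M in 12-month striatum with 9. The lowering comparisons (LacQ140_A, LacQ140_2M or LacQ140_8M against LacQ140) differ in IPTG as well as in mHtt. LacQ140_A and WT both had none and were also compared. The 6-month and 12-month libraries were separate batches held in separate tables, so age and batch cannot be told apart and the ages were not tested against each other.

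As background, homeostatic microglia sense their surroundings through receptors such as Cx3cr1, the receptor of the neuronal chemokine fractalkine, and P2ry12, an ADP receptor that directs process movement, and they depend on signaling through Csf1r, the receptor of the survival factors CSF1 and IL-34. In ageing and neurodegeneration, some microglia lower these genes and take up an activated state that runs through Trem2 and its adaptor Tyrobp and is marked by Itgax (CD11c), Clec7a (dectin-1) and Cst7 (cystatin F). C1qa, C1qb and C1qc encode the chains of C1q, which starts the classical complement pathway and which the brain takes mainly from microglia. C4b and C3 act downstream of it, and C1q and C3 are known to tag synapses for removal.

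Library totals ranged from 37915538 to 68038831 counts at 6 months and from 33292057 to 50478438 at 12 months. Htt, counted from both alleles, had a median in 6-month striatum of 112 CPM (counts scaled to the size of each library) in WT+IPTG, 99.58 in LacQ140 and 87.9 in LacQ140_A, and of 148.8, 113.2 and 90.95 CPM in 12-month striatum. Summed markers of striatal projection neurons lay between 6261 and 7396 CPM in WT striatum at 12 months and between 140.2 and 273.4 CPM in WT cortex, as labelled. The 12-month cortex libraries stood apart. The slope of log2 CPM on log2 transcript length was -0.321 to 0.136 there against 0.276 to 0.579 in 12-month striatum, 0.158 to 0.618 in 6-month cortex and 0.25 to 0.538 in 6-month striatum, so long transcripts were counted less there. Some striatal libraries were high in markers of blood, choroid plexus or cortical excitatory neurons, which included 5 of the 10 WT+IPTG and 2 of the 10 LacQ140 libraries at 6 months, and 3 of 10 and 1 of 9 at 12 months. Members called between arms in striatum are therefore also given without these libraries, a check chosen after seeing the data.

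The sequences just before the start sites of 5 genes that carry the results are given first: Clec7a, Itgax and Cst7, which rose in LacQ140 striatum at 12 months, and Olfml3 and Cd53, which fell there at 6 months. Each is the 250 bases upstream of the start in RefSeq, GRCm38.p6, 5′ to 3′ on the gene's strand, and was chosen among genes with a listed window that overlaps annotated exons by at most 30 bases. Capitals mark GAGGAA or GGAAGT on either strand, the letters that make up the core of the motif of PU.1, the myeloid transcription factor encoded by the member Spi1. Both motifs hold the letters GGAA and can overlap each other.
Clec7a (chr6:129472786-129473035, minus strand): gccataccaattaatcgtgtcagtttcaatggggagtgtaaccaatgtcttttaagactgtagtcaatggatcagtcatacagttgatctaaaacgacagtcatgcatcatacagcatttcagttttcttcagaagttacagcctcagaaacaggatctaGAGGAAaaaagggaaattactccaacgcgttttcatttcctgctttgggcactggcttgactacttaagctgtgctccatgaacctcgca
Itgax (chr7:128129300-128129549, plus strand): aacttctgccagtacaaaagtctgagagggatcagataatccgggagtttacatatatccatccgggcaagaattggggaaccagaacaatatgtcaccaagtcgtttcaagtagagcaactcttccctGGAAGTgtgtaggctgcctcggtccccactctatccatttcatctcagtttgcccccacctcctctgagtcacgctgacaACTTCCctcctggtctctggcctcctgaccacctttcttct
Cst7 (chr2:150570165-150570414, plus strand): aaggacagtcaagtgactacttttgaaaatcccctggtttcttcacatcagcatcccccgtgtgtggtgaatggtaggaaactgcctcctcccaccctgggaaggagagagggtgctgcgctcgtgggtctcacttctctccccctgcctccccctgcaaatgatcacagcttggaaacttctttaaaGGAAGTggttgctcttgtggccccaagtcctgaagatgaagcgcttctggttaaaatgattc
Olfml3 (chr3:103738002-103738251, minus strand): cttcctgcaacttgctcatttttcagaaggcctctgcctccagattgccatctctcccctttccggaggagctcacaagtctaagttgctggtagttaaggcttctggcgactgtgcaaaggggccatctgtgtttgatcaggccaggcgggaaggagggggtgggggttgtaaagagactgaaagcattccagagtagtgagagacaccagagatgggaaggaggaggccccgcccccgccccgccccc
Cd53 (chr3:106790150-106790399, minus strand): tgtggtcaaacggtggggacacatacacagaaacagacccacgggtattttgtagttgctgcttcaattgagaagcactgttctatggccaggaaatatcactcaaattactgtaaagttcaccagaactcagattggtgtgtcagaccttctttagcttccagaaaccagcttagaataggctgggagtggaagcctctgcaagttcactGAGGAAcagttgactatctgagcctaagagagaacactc
The Itgax window held GGAAGT on each strand, the Cst7 window held GGAAGT, the Clec7a and Cd53 windows held GAGGAA, and the Olfml3 window held neither. Of 38 members, 27 had a window in the RefSeq table, and 15 of these held GAGGAA, 12 held GGAAGT and 20 held either in any of their windows (5 had more than 1). Counted the same way, 25.9%, 22.2% and 40.2% of all 27025 genes with a window did. These matches describe letters in a window and show no binding.

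Expression per kilobase of the longest transcript placed the members over a wide range. In WT striatum at 6 months the lysosomal protease gene Ctss (113.2 CPM per kb), the C1q chains C1qb (105.5) and C1qa (92.09), Tyrobp (66.58) and C1qc (63.78) were the 5 highest members. Csf1r, at 24.23 CPM per kb, was the highest of the homeostatic genes. At the other end stood Clec7a (0.3919), Cst7 (0.2624), C3 (0.2293) and Itgax (0.09297). Clec7a, Cst7 and Itgax are activated genes. The other activated genes were higher, at 1.502 (Cd74), 6.436 (Trem2), 13.85 (Cd68), 15.12 (Spp1), 15.41 (Lpl) and 66.58 (Tyrobp). Itgax was covered by 9 to 45 counts per library in 6-month striatum and 25 to 180 at 12 months, and Cst7 by 2 to 40 and 10 to 99.

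The first question was what expression of mHtt did to these genes, from LacQ140 against WT+IPTG, both of which had IPTG. In 6-month striatum 6 of 11 homeostatic genes fell and 0 rose, with a median log2 difference of -0.27 over the 11, against 0.0 over all genes tested. Oligodendrocyte, astrocyte, endothelial and border macrophage markers had medians similar to this or lower, given below. Of 13 pan-myeloid genes 3 fell, of 5 complement genes 0 were called, and of 9 activated genes 1 rose. Called means that a gene passed an adjusted p of 0.05 and changed by 20% or more (edgeR quasi-likelihood test, Benjamini-Hochberg over all genes). Of all genes tested, 3.97% rose and 3.96% fell in this comparison, and among genes over 1 CPM on average 15.5% were called in either direction, against 10 of the 38 members. These are tissue levels, and in bulk samples fewer microglia and less RNA per cell cannot be told apart.

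Fcrls (chromosome 3, 87250758 to 87263738, GRCm38), an Fc receptor-like gene known as a microglial marker, had in 6-month striatum a lowest, median and highest level of 20.2, 25.9 and 32.97 CPM in WT+IPTG and of 13.27, 17.11 and 20.07 in LacQ140. No LacQ140 mouse reached the lowest WT+IPTG mouse. The difference was -0.58 ± 0.10 on the log2 scale (SE, adjusted p = 9.4e-06, edgeR). Olfml3 (chromosome 3, 103722222 to 103738001), which encodes a secreted olfactomedin-like protein, was at 19.92, 21.4 and 26.56 CPM in WT+IPTG and 12.06, 15.75 and 17.82 in LacQ140, also without overlap (-0.50 ± 0.10, adjusted p = 0.0002, edgeR).

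Gpr34 (chromosome X, 13632089 to 13640858), a lysophosphatidylserine receptor, was at 11.01, 15.3 and 25.93 CPM in WT+IPTG and 6.583, 11.9 and 14.21 in LacQ140 (-0.615 ± 0.129, adjusted p = 0.00044, edgeR). The arms overlapped, and 1 LacQ140 mouse was far below the others. Cx3cr1 (chromosome 9, 119901616 to 120069879) was at 57.35, 67.45 and 75.06 CPM in WT+IPTG and 38.8, 55.65 and 64.64 in LacQ140 (-0.29 ± 0.06, adjusted p = 0.00043, edgeR), with the upper LacQ140 mice inside the WT+IPTG range. P2ry12 (33.45, 37.96 and 45.38 CPM against 27.53, 30.64 and 40.5) and Tmem119, a transmembrane protein used as a microglial marker (27.85, 31.55 and 40.11 against 23.07, 27.12 and 30.95), fell by 0.27 and 0.29 on the log2 scale (adjusted p = 0.0081 and 0.007, edgeR). Both overlapped between the arms.

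The remaining 5 homeostatic genes were not called at 6 months in striatum. Selplg, which encodes the selectin ligand PSGL-1 (-0.23, adjusted p = 0.026, edgeR), and the ADP receptor gene P2ry13 (-0.26, adjusted p = 0.041, edgeR) passed the p threshold without reaching the 20% bound. Csf1r (-0.16), the lectin gene Siglech (-0.13) and Sall1, a transcription factor of microglial identity (0.05), did not pass the p threshold (adjusted p = 0.073, 0.23 and 0.8, edgeR). Csf1r medians were 117.7 CPM in WT+IPTG and 105.1 in LacQ140, with overlapping ranges.

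Among pan-myeloid genes, Aif1 (the marker Iba1) was at 7.714, 10.05 and 11.85 CPM in WT+IPTG and 5.496, 7.586 and 10.16 in LacQ140 (-0.39 ± 0.10, adjusted p = 0.0065, edgeR). The tetraspanin gene Cd53 was at 7.834, 9.924 and 11.83 against 6.461, 7.616 and 9.885 CPM (-0.35 ± 0.09, adjusted p = 0.0034, edgeR). Itgam, the CD11b chain of complement receptor 3, was at 16.76, 23.12 and 28.46 against 15.13, 19.59 and 20.78 CPM (-0.29 ± 0.09, adjusted p = 0.016, edgeR). All 3 ranges overlapped between the arms. Estimates of 12 of 13 pan-myeloid genes were below 0, and Ctss, the highest of them per kb in WT, had medians of 149.6 CPM in WT+IPTG and 145.1 in LacQ140 (-0.09 ± 0.06, adjusted p = 0.35, edgeR).

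Of the 9 activated genes 1 was called at this age. Itgax, Cst7, Clec7a and Cd74 had median levels of 0.4459, 0.2885, 0.7336 and 2.159 CPM in WT+IPTG and 0.4328, 0.2924, 0.9014 and 2.355 in LacQ140, and every range overlapped. Their log2 differences lay between -0.13 and 0.14, with adjusted p from 0.7 to 0.99 (edgeR). Lpl, lipoprotein lipase, rose, from 49.09, 61.58 and 72.88 CPM in WT+IPTG to 65.05, 78.07 and 100.6 in LacQ140 (0.34 ± 0.08, adjusted p = 0.0011, edgeR). Lpl is also known to be made by neurons, and its WT levels reached 88.25 CPM. Tyrobp, the activated gene with the highest level per kb in WT, had medians of 39.11 and 34.78 CPM (-0.15 ± 0.10, adjusted p = 0.41, edgeR).

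**Figure D1:**
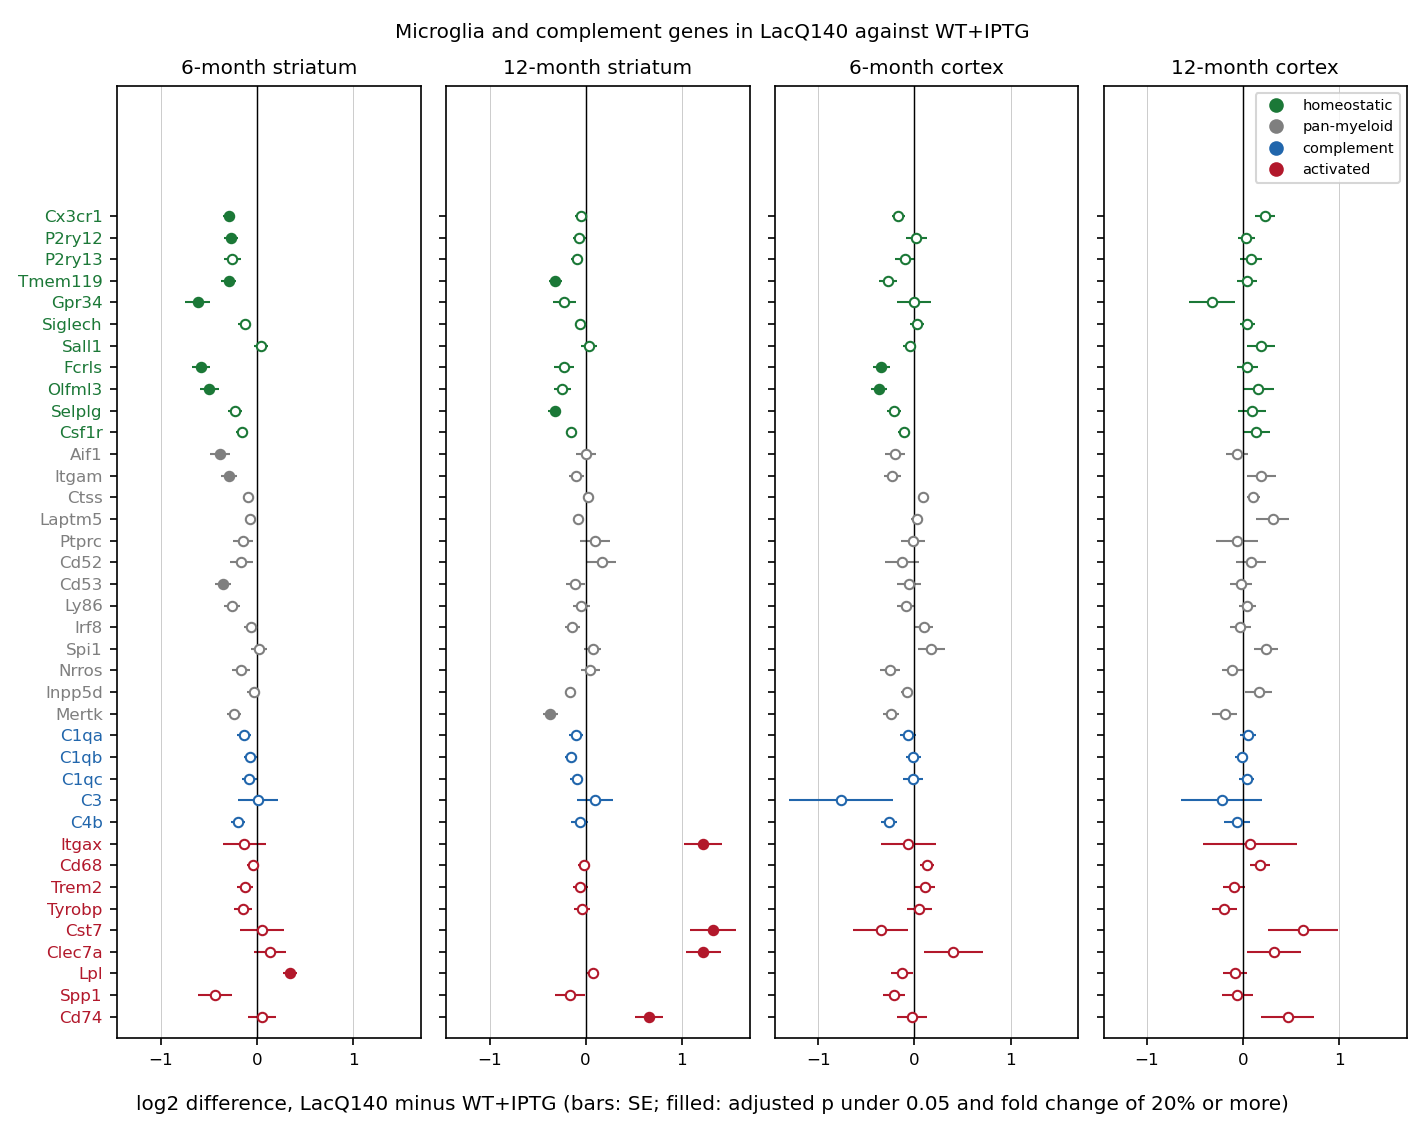
Log2 difference between LacQ140 and WT+IPTG (x axis) for each of the 38 genes, by tissue and age. Points are edgeR estimates, bars are SE, and filled points passed an adjusted p of 0.05 and a fold change of 20%. In 6-month striatum 9 filled points lie below 0 and 1 (Lpl) above, and in 12-month striatum Itgax, Cst7, Clec7a and Cd74 are filled above 0.

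Other cell types moved in the same libraries. Of 8 markers of border macrophages, the macrophages of vessels and meninges, 4 fell in 6-month LacQ140 striatum (Lyve1 -1.08, Ms4a7 -0.76, Mrc1 -0.57, Stab1 -0.27), and their summed level was 18.75 to 27.43 CPM (median 24.47) in WT+IPTG and 15.11 to 23.73 (median 19) in LacQ140. Endothelial markers summed to 190.8 to 270.5 CPM in WT+IPTG and 178.8 to 228.2 in LacQ140, with 1 of 5 fallen. Called falls also took in 4 of 7 oligodendrocyte markers, 2 of 11 blood and granulocyte, 2 of 5 choroid plexus, 2 of 5 cortical excitatory neuron, 1 of 7 astrocyte, 1 of 7 lymphocyte and 1 of 4 oligodendrocyte precursor markers, and 0 of 5 general neuron markers were called. Median log2 differences were -0.591 for border macrophage (8 of 8 below 0) and -0.272 for oligodendrocyte markers (7 of 7). They were -0.228 for astrocyte (6 of 7) and -0.225 for endothelial markers (5 of 5). Oligodendrocyte precursor markers had a median of -0.01 and general neuron markers of 0.133. The part of these cells in the fall of the 6 homeostatic genes was not tested. Without the libraries high in other markers 5 members fell and 0 rose: Fcrls (-0.49, adjusted p = 0.0059), Gpr34 (-0.71, adjusted p = 0.0025), Olfml3 (-0.40, adjusted p = 0.048), Aif1 (-0.42, adjusted p = 0.048) and Cx3cr1 (-0.27, adjusted p = 0.034, all edgeR). Cd53, Itgam, P2ry12, Tmem119 and Lpl kept their direction and were no longer called, in a fit that left 5 WT+IPTG and 8 LacQ140 mice. Leaving out 1 mouse took Cx3cr1 (LacQ140 F5, -0.25), Itgam (LacQ140 F1, -0.26, or WT+IPTG M1, -0.25), Tmem119 (WT+IPTG M1, -0.26) and P2ry12 (any of LacQ140 F2 to F5 and M5, and WT+IPTG F1, F2, F5 and M1, -0.24 to -0.26) below the 20% bound, with adjusted p from 0.0015 to 0.047 (edgeR).

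In 12-month striatum 4 of the 9 activated genes rose and 0 fell. The median over the 9 was 0.08, and 4 of the 9 estimates were below 0. The 11 homeostatic genes gave 2 that fell (median -0.15), the pan-myeloid genes 1 that fell (median -0.05), and the 5 complement genes none (median -0.095). Over the same 11 homeostatic genes WT+IPTG against WT had a median of 0.154 at this age, with 0 called by edgeR. Of all genes tested 4.58% rose and 4.86% fell, and of genes over 1 CPM 17.8% were called. The share was 18.4% of members (7 of 38) and 18.2% of homeostatic genes. Both are near that background and are no result about these sets. Of the activated genes 44.4% were called. At an unadjusted p under 0.05 there were 12 members here and 17 at 6 months.

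Clec7a (chromosome 6, 129461591 to 129472779, annotated as a polymorphic pseudogene in GENCODE M21), the receptor for beta-glucans, had a lowest, median and highest level of 0.4183, 1.045 and 1.19 CPM in WT+IPTG and of 1.457, 2.184 and 3.184 in LacQ140. The arms did not overlap. The difference was 1.22 ± 0.18 (log2, adjusted p = 3.1e-07, edgeR). Itgax (chromosome 7, 128129547 to 128150657), the CD11c chain of complement receptor 4, was at 0.6182, 0.9569 and 1.701 CPM in WT+IPTG and 1.437, 2.105 and 4.246 in LacQ140 (1.22 ± 0.20, adjusted p = 1.6e-06, edgeR), and the highest WT+IPTG mouse was above the lowest LacQ140 mouse.

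Cst7 (chromosome 2, 150570415 to 150578944), an inhibitor of lysosomal cysteine proteases, was at 0.2808, 0.4541 and 0.7229 CPM in WT+IPTG and 0.4791, 1.067 and 2.335 in LacQ140 (1.32 ± 0.24, adjusted p = 1.7e-05, edgeR). Cd74 (chromosome 18, 60803848 to 60812652), the invariant chain that guides MHC class II molecules, was at 2.118, 2.74 and 3.79 CPM in WT+IPTG and 2.773, 4.53 and 6.18 in LacQ140 (0.66 ± 0.14, adjusted p = 0.0004, edgeR). Both overlapped between the arms. The sum of the 4 genes was 3.608, 5.069 and 7.337 CPM in WT+IPTG, 3.89, 4.779 and 8.297 in WT and 6.885, 10.6 and 13.6 in LacQ140. These 4 are the activated genes called in this comparison, so their higher sum restates the calls and adds no support. At 6 months the sum was 2.639, 3.763 and 5.337 in WT+IPTG and 2.944, 4.093 and 4.931 in LacQ140. Age and batch differ between those values.

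The other 5 activated genes were not called at 12 months, with log2 differences between -0.17 and 0.08. They include Trem2 (-0.06) and Tyrobp (-0.04), the receptor and adaptor of the activated state, the lysosomal marker Cd68 (-0.01) and Spp1, osteopontin (-0.17). Tyrobp medians were 26.71 CPM in WT+IPTG and 23.94 in LacQ140. Lpl, called at 6 months, had medians of 69.03 and 72.75 CPM (0.08 ± 0.07, adjusted p = 0.58, edgeR).

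In all 3 members fell in 12-month LacQ140 striatum. Tmem119 was at 32.3, 40.32 and 45.41 CPM in WT+IPTG and 22.42, 31.57 and 37.76 in LacQ140 (-0.32 ± 0.07, adjusted p = 0.00038, edgeR). Selplg was at 44.25, 57.05 and 63.63 against 33.51, 44.66 and 53.87 CPM (-0.32 ± 0.07, adjusted p = 0.00017, edgeR). Mertk, a receptor for the engulfment of dying cells that astrocytes also express, was at 47.4, 52.01 and 62.67 against 31.65, 41.31 and 48.86 CPM (-0.37 ± 0.08, adjusted p = 0.00025, edgeR). Each of the 3 overlapped between the arms. Of 7 astrocyte markers 1 fell at this age.

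Of the genes that fell at 6 months, Tmem119 alone was also called at 12 months, and 16 members were called in striatum at either age. Fcrls had medians of 22.04 and 19.71 CPM at 12 months (-0.22 ± 0.11, adjusted p = 0.18, edgeR), Olfml3 23.87 and 21.21 (-0.24 ± 0.09, adjusted p = 0.047, edgeR, not past the 20% bound), Gpr34 11.19 and 10.04 (-0.22 ± 0.12, adjusted p = 0.29, edgeR) and Cx3cr1 73.62 and 72.51 (-0.05 ± 0.05, adjusted p = 0.66, edgeR). Whether these differences changed between the ages was not tested.

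**Figure D2:**
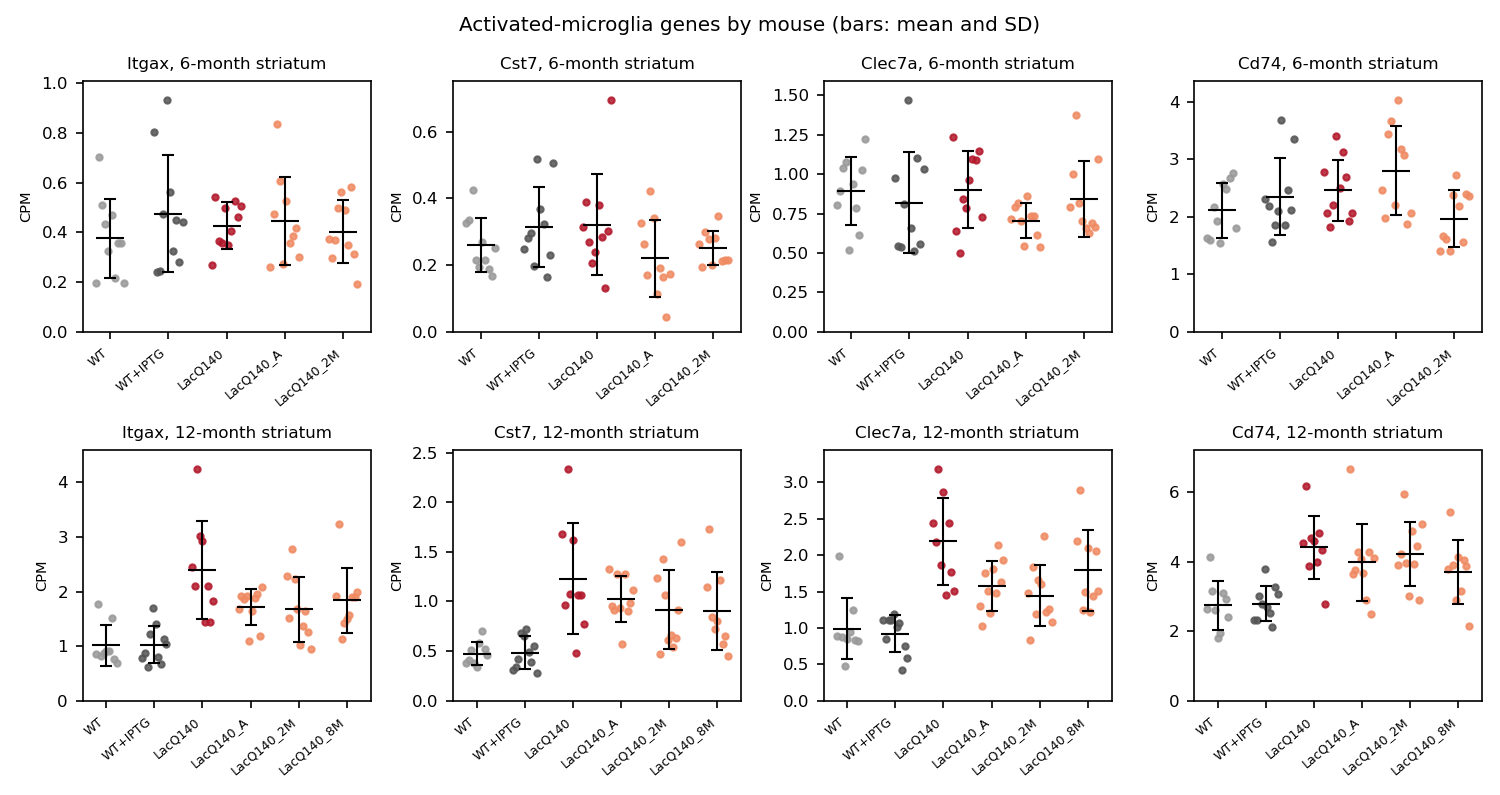
CPM (y axis) of Itgax, Cst7, Clec7a and Cd74 in each mouse, by arm (x axis), in 6-month (top) and 12-month (bottom) striatum. Bars are mean and SD. At 12 months the LacQ140 medians (2.105, 1.067, 2.184 and 4.53 CPM) exceed those of WT+IPTG (0.9569, 0.4541, 1.045 and 2.74 CPM), and the lowered arms lie between.

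Beside the 12-month result, border macrophage markers gave 2 of 8 fallen (sum 18.24 to 29 CPM in WT+IPTG and 15.76 to 23.27 in LacQ140), blood and granulocyte markers 3 of 11 fallen (187 to 1335 CPM and 75.06 to 305.2), oligodendrocyte markers 3 of 7 fallen, endothelial and choroid plexus markers 2 of 5 fallen each, and lymphocyte markers 0 of 7 called. Of 5 cortical excitatory neuron markers 1 rose and 4 were above 0 (median 1.14), with sums of 6.489 to 78.69 CPM in WT+IPTG and 6.98 to 307.2 in LacQ140, and of 5 general neuron markers 1 rose. Their part in the rise of the 4 activated genes was not tested. All 7 striatal projection neuron markers fell at both ages (median -0.39 at 6 and -0.82 at 12 months). Without the libraries high in other markers the 4 activated genes were higher by 1.47 (Itgax), 1.63 (Cst7), 1.40 (Clec7a) and 0.72 (Cd74) on the log2 scale (adjusted p from 4.1e-07 to 0.0003, edgeR), and Selplg, Mertk and Tmem119 were also called.

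The complement genes among the members were not called between LacQ140 and WT+IPTG in striatum or cortex at either age. C1qb, the highest of them per kb in WT striatum at 6 months, was at 99.28, 121.8 and 128.3 CPM in WT+IPTG and 100.6, 110.1 and 146.6 in LacQ140 in 6-month striatum (-0.07 ± 0.07, adjusted p = 0.63, edgeR), and at 83.48, 104.6 and 113.9 against 78.88, 92.59 and 106.4 at 12 months (-0.16 ± 0.06, adjusted p = 0.1, edgeR). The ranges overlapped at both ages. C1qa, C1qc, C3 and C4b had log2 differences between -0.20 and 0.01 at 6 months and between -0.10 and 0.10 at 12 months. C4b shares reads with its near-identical paralog C4a, so its level is uncertain to that extent.

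In cortex 2 members were called at 6 months and none at 12 months. Fcrls was at 23.28, 31.97 and 37.73 CPM in WT+IPTG and 21.73, 23.97 and 30.34 in LacQ140 (-0.34 ± 0.09, adjusted p = 0.037, edgeR), and Olfml3 at 17.72, 21.42 and 24.28 against 14.11, 16.17 and 19.53 (-0.37 ± 0.09, adjusted p = 0.02, edgeR). Both overlapped between the arms. Both calls depended on the mice in the fit. Leaving out 1 mouse at a time removed the call of Olfml3 in 3 of 20 fits (LacQ140 F1, WT+IPTG M2 or M3, -0.34 to -0.35, adjusted p = 0.055 to 0.056, edgeR) and that of Fcrls in 12 (LacQ140 F1 and M1 to M5, WT+IPTG F1, F2, F5 and M1 to M3, -0.31 to -0.34, adjusted p = 0.053 to 0.1, edgeR). In the same libraries 2 of 5 endothelial markers (5 of 5 below 0), 1 of 8 border macrophage markers (8 of 8 below 0, median -0.365) and 1 of 4 oligodendrocyte precursor markers fell. Endothelial markers summed to 254.9 to 326.7 CPM in WT+IPTG and 221.3 to 265.2 in LacQ140, and border macrophage markers to 33.92 to 43.15 and 22.73 to 36.63. Their part in the fall of the 2 genes was not tested. Of all genes tested 0.378% rose and 0.503% fell, and 10 members had an unadjusted p under 0.05. Of genes over 1 CPM 1.95% were called, against 5.26% of the members. At 12 months 0 members were called by edgeR, with 1 at an unadjusted p under 0.05, against 0.0899% of all genes.

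A fit of both tissues together, with the mouse as a block, tested whether the LacQ140 difference itself differed between striatum and cortex. No member was called (edgeR), against 1.12% of all genes at 6 months and 2.8% at 12 months, with 9 and 6 members at an unadjusted p under 0.05. Of genes over 1 CPM 2.6% and 6.5% were called. The smallest p-values were those of Fcrls at 6 months (striatum minus cortex -0.25, adjusted p = 0.064) and Clec7a at 12 months (0.88, adjusted p = 0.066). In 12-month cortex Clec7a was at 0.2218, 1.441 and 3.181 CPM in WT+IPTG and 0.9381, 1.779 and 2.279 in LacQ140, a wide overlap, and Itgax was at 0 to 0.4013 and 0.02405 to 0.2159 CPM.

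**Figure D3:**
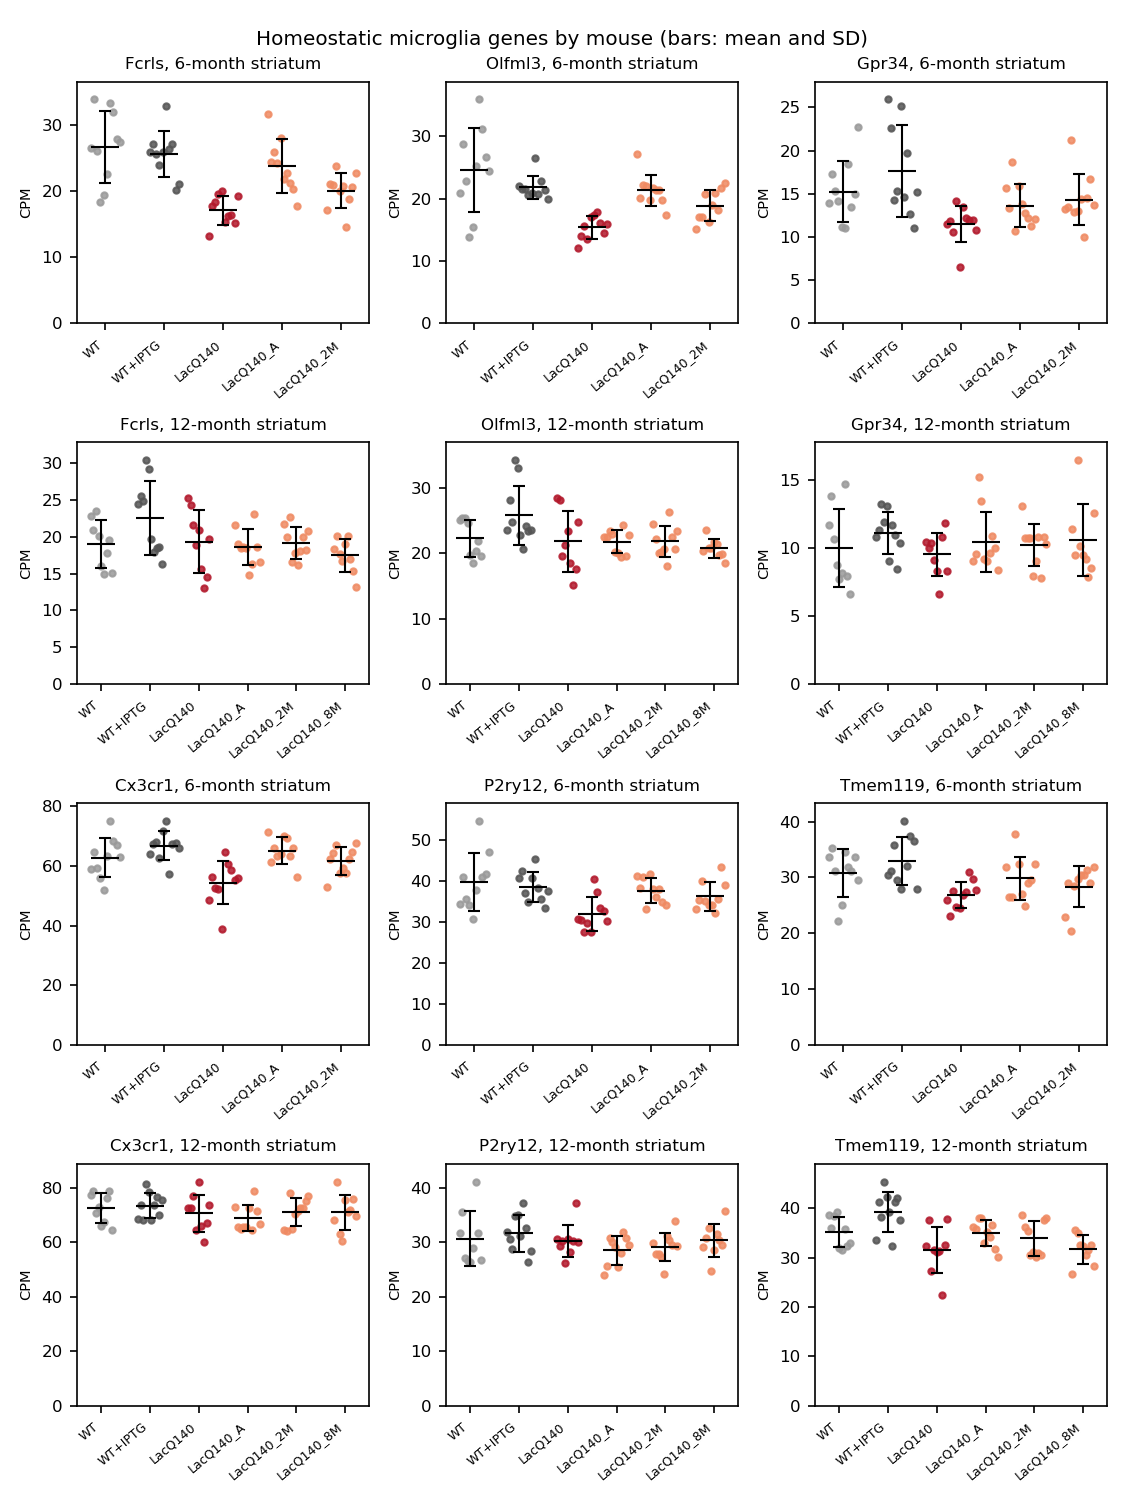
CPM (y axis) of 6 homeostatic genes in each striatal library, by arm (x axis), at 6 and 12 months, with mean and SD. At 6 months the LacQ140 mice had the lowest medians for each gene (17.11 CPM for Fcrls and 15.75 for Olfml3). LacQ140 and WT+IPTG overlapped at 6 months for each gene but Fcrls and Olfml3. At 12 months the arms overlapped, and Tmem119 was called lower in LacQ140 (-0.32). A change between the ages was not tested.

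Lowering of mHtt from conception was compared with continued expression. In 6-month striatum LacQ140_A had 3 members higher than LacQ140 and 0 lower, against 1.3% of all genes higher and 0.584% lower. Of genes over 1 CPM 3.73% were called, against 7.89% of the members. Fcrls was at 17.7, 23.52 and 31.76 CPM in LacQ140_A (0.48 ± 0.10 above LacQ140, adjusted p = 0.001, edgeR), Olfml3 at 17.42, 21.37 and 27.21 (0.47 ± 0.10, adjusted p = 0.0021, edgeR) and Itgam at 20.96, 23.44 and 27.88 (0.32 ± 0.09, adjusted p = 0.024, edgeR). The lowest LacQ140_A mouse for Itgam was above the highest LacQ140 mouse, and the other 2 genes overlapped. In the same libraries all 7 striatal projection neuron markers were higher in LacQ140_A (median 0.43) and 1 of 5 general neuron markers was lower. Of the markers with 0 called by edgeR, all 5 endothelial (median 0.20, 3 at an unadjusted p under 0.05) and all 7 oligodendrocyte estimates (median 0.10, 2 at an unadjusted p under 0.05) were above 0, as were 7 of 8 border macrophage estimates (median 0.11, 1 at an unadjusted p under 0.05), and all 5 choroid plexus estimates were below 0 (median -0.47, 1 at an unadjusted p under 0.05). The part of these cells was not tested. All 11 homeostatic estimates were above 0 (median 0.23), and Cx3cr1 missed the 20% bound narrowly (0.26, adjusted p = 0.0083, edgeR). Without the libraries high in other markers, Fcrls and Olfml3 were called and Itgam was not (0.29, adjusted p = 0.083, edgeR).

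Lowering from 2 months gave estimates of the same sign that did not pass the test in the main fit. In 6-month striatum LacQ140_2M had 0 members called (edgeR, 7 at an unadjusted p under 0.05) against 1.26% of all genes and 2.65% of genes over 1 CPM. A fit of only the arms compared did give a call, as described at the end. Fcrls was at 14.66, 20.72 and 23.76 CPM (0.23 ± 0.10, adjusted p = 0.31, edgeR) and Olfml3 at 15.15, 18.57 and 22.46 (0.29 ± 0.10, adjusted p = 0.15, edgeR), both overlapping LacQ140. The median over the 11 homeostatic genes was 0.18. Beside it 6 of 7 striatal projection neuron markers (median 0.33) and 1 of 5 endothelial markers (5 of 5 above 0, median 0.14) were called higher, and all 8 border macrophage estimates were above 0 (median 0.23, 0 called by edgeR and 2 at an unadjusted p under 0.05). Their part was not tested. These comparisons share the LacQ140 libraries with the comparison of LacQ140 with WT+IPTG.

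At 12 months no member was called in striatum between any lowered arm and LacQ140 (edgeR). The background was 0.91% of genes for LacQ140_A, 0.608% for LacQ140_2M and 0.00565% for LacQ140_8M, and 3, 5 and 1 members had an unadjusted p under 0.05. Of genes over 1 CPM 1.79%, 1.14% and 0.00681% were called. Clec7a was at 1.026, 1.57 and 2.137 CPM in LacQ140_A (-0.47 ± 0.17, adjusted p = 0.21), 0.8366, 1.369 and 2.267 in LacQ140_2M (-0.60 ± 0.17, adjusted p = 0.082) and 1.216, 1.506 and 2.9 in LacQ140_8M (-0.26 ± 0.17, adjusted p = 0.86, all edgeR against LacQ140). The 3 ranges overlapped that of LacQ140, 1.457 to 3.184 CPM.

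Itgax differed from LacQ140 by -0.47 ± 0.18 in LacQ140_A, -0.51 ± 0.18 in LacQ140_2M and -0.36 ± 0.18 in LacQ140_8M, with adjusted p = 0.25, 0.26 and 0.86 (edgeR). For Cst7 the differences were -0.25 ± 0.21, -0.41 ± 0.21 and -0.41 ± 0.22, and for Cd74 -0.14 ± 0.14, -0.06 ± 0.14 and -0.24 ± 0.14. Estimates of these 4 genes were below 0 in every lowered arm, and none was past the threshold. The median over the homeostatic genes was -0.019, 0.008 and 0.002 in the 3 arms. In the same libraries all 7 striatal projection neuron estimates were above 0 in each arm, with 3, 3 and 0 called by edgeR. In LacQ140_A 1 of 5 general neuron markers fell, and in LacQ140_2M 2 of 7 lymphocyte markers rose (7 of 7 above 0). The part of these cells was not tested.

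In cortex no member was called in any lowered arm against LacQ140 (edgeR, main fit). Fits of only the arms compared did call members there for LacQ140_A at both ages, as described at the end. DESeq2 called 1 in cortex, in LacQ140_A at 6 months, and 0 in every other comparison between arms, in either tissue, where edgeR called 0. At 6 months this stood against 0.00834% of genes for LacQ140_A and 0% for LacQ140_2M, with 12 and 7 members at an unadjusted p under 0.05. All 11 homeostatic estimates were above 0 in both arms (medians 0.20 and 0.12). So were all 5 endothelial estimates in both arms (medians 0.21 and 0.13, 4 and 2 at an unadjusted p under 0.05) and 7 and 6 of 7 oligodendrocyte estimates (medians 0.18 and 0.035, 4 and 2 at an unadjusted p under 0.05), with 0 called by edgeR, and their part was not tested. Among members Olfml3 in LacQ140_A was nearest the threshold (0.41 ± 0.09, adjusted p = 0.081, edgeR). At 12 months the background was 0.0435% for LacQ140_A, 0.0841% for LacQ140_2M and 0% for LacQ140_8M, with 8, 4 and 0 members at an unadjusted p under 0.05. The homeostatic medians there were -0.21, -0.06 and -0.06. In LacQ140_2M 2 of 7 lymphocyte and 1 of 11 blood and granulocyte markers rose in 12-month cortex, and their part was not tested.

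LacQ140_A was also compared with WT, where neither arm had IPTG. In 12-month striatum 4 activated genes (Itgax, Cst7, Clec7a and Cd74) were higher in LacQ140_A, and no other member was called, against 1.25% of all genes higher and 1.91% lower. Of genes over 1 CPM 6.3% were called, against 10.5% of the members. Cst7 was at 0.3362, 0.4621 and 0.6983 CPM in WT and 0.5696, 0.9704 and 1.323 in LacQ140_A (1.11 ± 0.25, adjusted p = 0.0023, edgeR). Itgax was at 0.6821, 0.8793 and 1.768 against 1.098, 1.871 and 2.081 (0.78 ± 0.21, adjusted p = 0.015, edgeR). Clec7a was at 0.4735, 0.8766 and 1.986 against 1.026, 1.57 and 2.137 (0.69 ± 0.20, adjusted p = 0.02, edgeR), and Cd74 at 1.801, 2.649 and 4.135 against 2.491, 3.909 and 6.663 (0.55 ± 0.15, adjusted p = 0.014, edgeR). Every pair of ranges overlapped. In the same libraries all 7 striatal projection neuron markers fell (median -0.533, sums of 6261 to 7396 CPM in WT and 4131 to 5552 in LacQ140_A), 1 of 7 oligodendrocyte markers and 2 of 15 interferon response genes fell, and 1 of 5 general neuron and 1 of 7 astrocyte markers rose. Border macrophage (8), blood and granulocyte (11) and lymphocyte (7) markers had 0 called by edgeR, with 0, 0 and 1 at an unadjusted p under 0.05. The part of these cells in the rise of the 4 genes was not tested. Without the libraries high in other markers Cst7 was called (0.99, adjusted p = 0.015) and Itgax (0.70, adjusted p = 0.065), Clec7a (0.63, adjusted p = 0.11) and Cd74 (0.34, adjusted p = 0.29, all edgeR) were not.

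In 6-month striatum 1 member, Lpl, was higher in LacQ140_A than in WT (64.15, 77.6 and 93.95 against 52.02, 60.72 and 88.25 CPM, 0.29 ± 0.08, adjusted p = 0.043, edgeR), against 0.43% of genes higher and 0.48% lower. Its ranges overlapped, and it was not called without the libraries high in other markers (0.26, adjusted p = 0.14, edgeR). Beside it 1 of 7 oligodendrocyte markers fell and 1 of 4 oligodendrocyte precursor markers rose, and their part was not tested. Of genes over 1 CPM 1.81% were called, against 2.63% of the members. The homeostatic median was -0.04 at 6 and -0.06 at 12 months. In cortex no member was called (edgeR, 9 at an unadjusted p under 0.05 at 6 months and 2 at 12 months), against 0.425% and 0.0174% of genes.

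**Figure D4:**
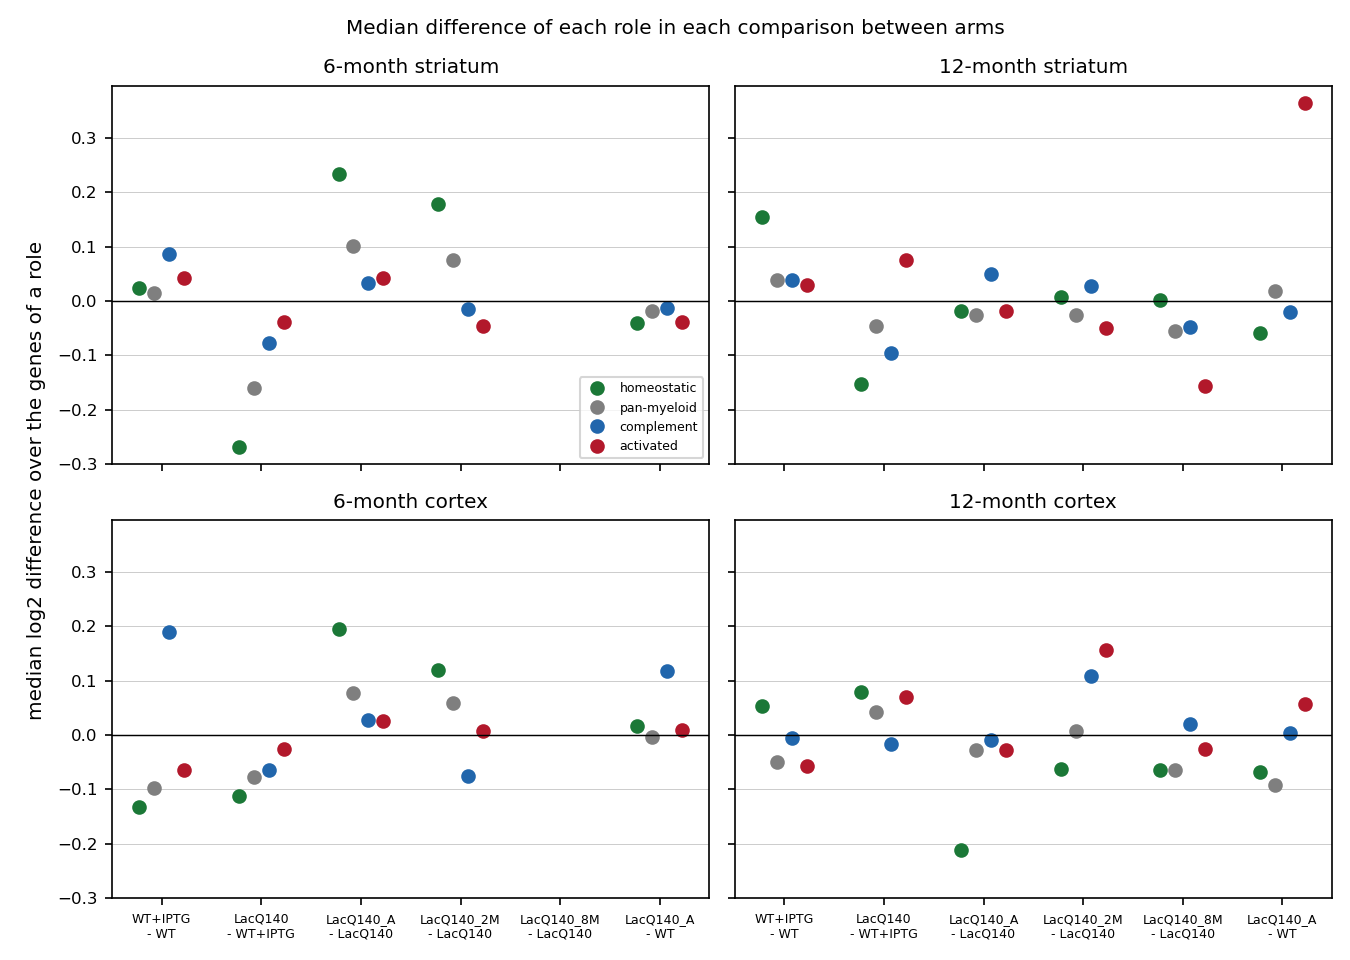
Median log2 difference over the genes of each role (y axis) in each comparison between arms (x axis), by tissue and age. The homeostatic median is -0.27 for LacQ140 against WT+IPTG and 0.23 for LacQ140_A against LacQ140 in 6-month striatum. The activated median is 0.36 for LacQ140_A against WT in 12-month striatum.

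IPTG itself was compared in mice without the expanded repeat (WT+IPTG against WT). In 6-month striatum 2 members rose and 0 fell, against 0.38% and 0.204% of all genes, and in 6-month cortex 2 rose, against 0.25% and 0.358%. In both tissues these were Nrros and C4b, 5.26% of the members. Of genes over 1 CPM 1.2% were called in striatum and 1.23% in cortex. Nrros (chromosome 16, 32142785 to 32165594), which holds latent TGF-beta on microglia, was at 4.047, 5.703 and 7.095 CPM in WT and 6.496, 7.582 and 8.465 in WT+IPTG striatum (0.42 ± 0.10, adjusted p = 0.017, edgeR). In cortex it was at 4.708, 6.935 and 8.887 against 8.838, 10.11 and 13 CPM (0.70 ± 0.11, adjusted p = 0.00024, edgeR). The ranges of the arms overlapped in both tissues.

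C4b (chromosome 17, 34728380 to 34743882) was at 36.01, 44.04 and 52.28 CPM in WT and 43.9, 53.29 and 66 in WT+IPTG striatum (0.30 ± 0.08, adjusted p = 0.035, edgeR), and at 14.12, 21.53 and 24.34 against 20.38, 28.07 and 33.29 CPM in cortex (0.41 ± 0.09, adjusted p = 0.0095, edgeR). The ranges overlapped in both. Without the libraries high in other markers neither was called in striatum (Nrros 0.36, adjusted p = 0.42, C4b 0.19, adjusted p = 0.83, edgeR). The 2 tissues come from the same mice and are not independent. In 6-month cortex blood and granulocyte markers (5 of 11), astrocyte markers (2 of 7) and oligodendrocyte markers (1 of 7) fell in WT+IPTG. Border macrophage markers had 1 of 8 risen and all 8 above 0, and their sum did not overlap between WT (23.12 to 32.55 CPM) and WT+IPTG (33.92 to 43.15 CPM). All 5 choroid plexus estimates were above 0 (median 1.63), with 0 called by edgeR and 5 at an unadjusted p under 0.05, and these markers summed to 9.855 to 171.8 CPM in WT and 11.02 to 2062 CPM in WT+IPTG. In 6-month striatum 1 of 5 choroid plexus and 1 of 7 oligodendrocyte markers rose. Their part in the rise of Nrros and C4b was not tested. At 12 months 0 members were called by edgeR in striatum (10 at an unadjusted p under 0.05) or cortex (0), against 0.218% and 0% of genes. In 12-month striatum 10 of 11 homeostatic estimates were above 0 (median 0.154, 6 at an unadjusted p under 0.05). Nrros was then at -0.18 in striatum and -0.17 in cortex, and C4b at -0.03 and -0.07.

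Females and males were compared over all arms, and 1 member was called in each tissue at 12 months. Fcrls was higher in females in striatum (0.28 ± 0.05, adjusted p = 0.00077, edgeR), against 0.147% of genes higher and 0.0706% lower, and Gpr34, an X-linked gene, was higher in females in cortex (0.57 ± 0.12, adjusted p = 0.015, edgeR), against 0.0986% and 0.0551%. Of genes over 1 CPM 0.307% and 0.244% were called, against 2.63% of the members in each tissue. At an unadjusted p under 0.05 there were 17 members in striatum (29 of 38 estimates above 0) and 4 in cortex (19 of 38). In cortex 2 of 11 blood and granulocyte markers were lower in females. All 11 of these estimates were below 0 in both tissues, as were all 7 lymphocyte estimates, and their part was not tested. At 6 months 0 members were called by edgeR in striatum (10 at an unadjusted p under 0.05, background 0.279%) or cortex (9, background 0.192%). Lpl in 6-month striatum passed the p threshold (0.19, adjusted p = 0.021, edgeR) without reaching the 20% bound.

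Striatum and cortex of the same WT mice were compared. At 6 months 10 members were higher in striatum and 3 lower, against 14.2% and 14.4% of genes. These are 34.2% of the members, and 51.6% of genes over 1 CPM were called. Lpl (2.36 ± 0.10, log2 striatum minus cortex), C4b (1.05 ± 0.07), Cd68 (0.91 ± 0.06) and Clec7a (0.79 ± 0.19) differed most upwards, and Cd74 (-1.18 ± 0.14), Mertk (-0.67 ± 0.06) and Fcrls (-0.39 ± 0.05) were lower in striatum. The 3 C1q chains were higher in striatum by 0.32 to 0.37. Adjusted p-values of these genes lay at or below 0.00063 (edgeR with mouse as a block).

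At 12 months 21 were higher in striatum and 8 lower, against 22% and 22.1% of genes (76.3% of the members, and 83.4% of genes over 1 CPM). The median difference was larger for long transcripts. The 15 members whose longest transcript exceeds 3000 nt had a median of 1.64 (13 higher and 2 lower), and the other 23 had a median of 0.06 (8 higher and 6 lower). At 6 months these medians were 0.09 and 0.15. C3 (4.70) and Lpl (3.61) stood highest and Tyrobp (-1.68), a short transcript, lowest. The homeostatic median was 0.04 at 6 months and 0.77 at 12 months, where Csf1r was 1.94 higher in striatum. Length bias and tissue cannot be told apart for these 12-month values.

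**Figure D5:**
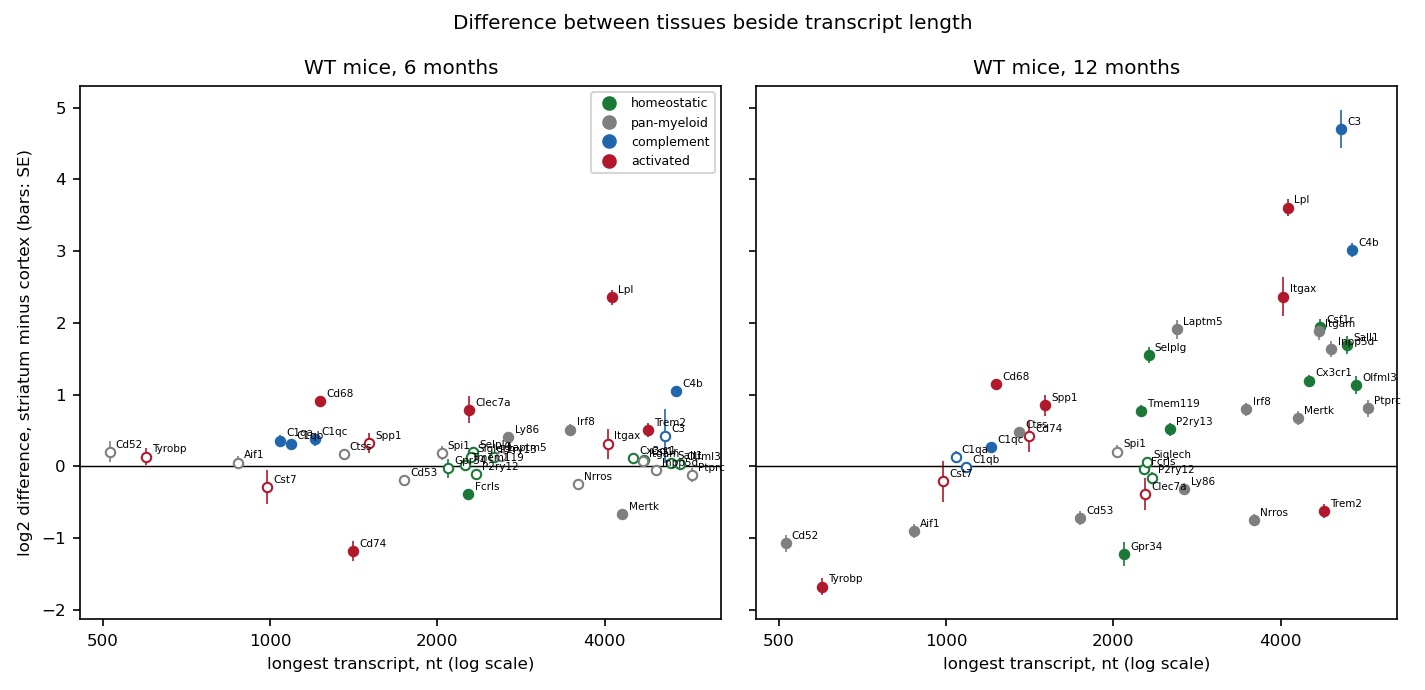
Log2 difference between striatum and cortex of WT mice (y axis, bars are SE) against the longest annotated transcript (x axis, nt, log scale) for each member, at 6 and 12 months. Filled points passed an adjusted p of 0.05 and a fold change of 20%. At 12 months the members over 3000 nt have a median of 1.64 and the others of 0.06.

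The wider pathway was read from gene lists written alongside the members. The background for their counts is the 15.5% of genes over 1 CPM called in this comparison in striatum at 6 months and the 17.8% at 12 months, and a share near these is not a result about a list. Of 24 other complement genes, 3 rose and 5 fell in 6-month LacQ140 striatum (33.3% called) and 1 rose and 3 fell at 12 months (16.7%, near the background). Cd59a, which blocks the membrane attack complex, fell by 0.67 on the log2 scale at 6 months (adjusted p = 5.3e-07) and by 0.88 at 12 months (adjusted p = 1.4e-06), and Cd55, which speeds the decay of complement convertases, fell by 0.43 (adjusted p = 0.00051) and by 0.61 (adjusted p = 1.5e-05, all edgeR). Cfp, which encodes properdin, fell at 6 months (-0.57, adjusted p = 0.0025, edgeR). C1s1, a C1s protease gene, also fell at 6 months (-0.44, adjusted p = 0.0075, edgeR). The 3 that rose at 6 months were Masp1, a protease of the lectin pathway (0.27, adjusted p = 0.0028), Csmd2 (0.31, adjusted p = 0.014) and Csmd1 (0.29, adjusted p = 0.029, all edgeR). C1s1 and these 3 were named after their values were seen. At 12 months Sez6, a neuronal complement regulator, fell (-0.27, adjusted p = 0.00018), and Csmd2 rose (0.34, adjusted p = 0.0031, edgeR).

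Of 11 ligands of microglial receptors, 1 was called at 6 months (9.09%) and 3 at 12 months (27.3%). Cd200, a neuronal ligand that restrains microglia, rose in LacQ140 striatum at 6 months (0.28, adjusted p = 0.00039) and at 12 months (0.55, adjusted p = 1.3e-14), while Cx3cl1, the ligand of Cx3cr1, fell at 12 months (-0.64, adjusted p = 1.3e-14, all edgeR). Mfge8, which bridges dying cells to phagocytes, fell at 12 months (-0.30, adjusted p = 0.006, edgeR). In 6-month cortex Tgfb3 fell (-0.28, adjusted p = 0.008, edgeR), and no other gene of these 5 lists was called in cortex at either age.

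Of 16 other homeostatic genes, 3 fell at 6 months (Slc2a5, a fructose transporter, -0.42; Tgfbr1, a TGF-beta receptor, -0.28; Bin2, -0.37) and 2 at 12 months (Il10ra, the interleukin 10 receptor, -0.32; Crybb1, -0.52), with 0 that rose. These shares, 18.8% and 12.5%, are near the background. Of 25 other activated genes, 5 rose and 0 fell at 12 months, a share (20%) near the background, among them Lgals3 (galectin 3, 0.99, adjusted p = 8.7e-06), the chemokine gene Ccl3 (1.10, adjusted p = 0.00011), Cybb, the catalytic subunit of the phagocyte NADPH oxidase (0.97, adjusted p = 0.0031), and Lyz2, lysozyme (0.29, adjusted p = 0.021, all edgeR). At 6 months Fth1, ferritin heavy chain, fell (-0.38, adjusted p = 6.7e-07, edgeR) and no gene of that list rose (4% called). Of 15 interferon response genes, 3 fell at 6 months (20%), which were Ifi27l2a (-0.93, adjusted p = 0.0017), Ifitm3 (-0.35, adjusted p = 0.011) and Isg15 (-0.48, adjusted p = 0.048, all edgeR). At 12 months 6 fell (40%), among them Ifit3 (-0.73, adjusted p = 0.015), Usp18 (-0.78, adjusted p = 0.024), Isg15 (-0.85, adjusted p = 0.025) and Ifit1 (-0.74, adjusted p = 0.027, all edgeR).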

How the data were processed

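Total RNA of striatum and cortex was sequenced in 217 libraries. The authors deposited, for each age, a table of expected counts per gene (33.55% of the values above 0 at 6 months and 31.58% at 12 months are not whole), named by Ensembl gene. The submitters' processing notes name GRCm38. Of the 54532 genes, 54409 were matched to GENCODE M21 for symbols, coordinates and lengths. Counts are uncertain where exons overlap a gene on the same strand (Itgam with Gm49368 over 210 nt, Spp1 with Gm42793 over 181 nt, Cd74 with Mir5107 over 12 nt). The strand setting of the counting is not given in the sources used here, so overlaps on the other strand (Csf1r with Hmgxb3 over 873 nt, Cd52 with Crybg2 over 145 nt, Cx3cr1 with Gm33858 over 78 nt, P2ry12 with Med12l over 9 nt) add to this.

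Counts were rounded. Genes with a summed count of at least 1 were kept, and each tissue and age was fitted with the arms as the only term (edgeR 4.0.16 quasi-likelihood test, TMM scaling, R 4.3.3). A gene was called at an adjusted p (Benjamini-Hochberg over all genes) under 0.05 where it also changed by 20% or more. Sex was compared over all arms. Comparisons of tissues used both tissues with the mouse as a block. CPM values are TMM-scaled, and CPM per kb was divided by the longest transcript. No libraries were duplicates of each other. The test was tested on simulated data. Median library totals were 50801766 counts at 6 months and 39823709 at 12 months.

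The members, gene lists and tests were chosen with earlier results of these data known. A member was given with its values in each arm where it was called in any comparison between arms (18 of 38), or was the most expressed of its role per kb, and the other members by counts and ranges. Genes of the other lists were named where called between LacQ140 and WT+IPTG, at most 4 a list at each age, smallest p first, apart from 4 complement genes at 6 months named after their values were seen. The cap left 3 called values at 12 months unnamed (1 other activated gene and 2 interferon response genes), and 1 called complement gene is not reported here. Replicate numbers do not pair mice across arms (the mean correlation of same-numbered libraries was 0.062 to 0.08, the lowest -0.67). Alternatives were DESeq2 1.42.0, a filter on low counts, DESeq2 size factors, sex or the length slope as a covariate, the replicate number as a block, fits restricted to the arms compared, no bound on the fold change (comparisons between arms), leaving out each mouse of the LacQ140 and WT+IPTG comparison, and, chosen after seeing the data, leaving out libraries with summed blood and granulocyte markers (in striatum also choroid plexus or cortical excitatory neuron markers) over 3 times the median.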

Additional observations from a re-analysis of the deposited data

Results flagged for a closer look

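Libraries that lay far from the other mice of their arm (Dixon's test of the gap to the nearest mouse, with groups of 9 or 10) were found in 6 of 59 groups of named genes, where chance gives about 1 in 20. Gpr34 was at 6.583 CPM in LacQ140 mouse F5 in 6-month striatum, and the nearest mouse was at 10.59. Olfml3 was at 27.21 CPM in LacQ140_A F1 (nearest 22.12) and at 26.56 CPM in WT+IPTG M1 (nearest 22.82), both in 6-month striatum. Cd74 was at 6.663 CPM in LacQ140_A F1 in 12-month striatum (nearest 4.274). Selplg was at 44.25 CPM in WT+IPTG M2 in 12-month striatum (nearest 53.42). C4b was at 14.12 CPM in WT M5 in 6-month cortex (nearest 19.36).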

How the results depend on the processing

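Counts of called members between LacQ140 and WT+IPTG in striatum stayed within 1.5 times of 10 (6 months) and 7 (12 months) under every alternative but the left-out libraries below, and leaving out 1 mouse at a time gave 7 to 13 and 7 to 8. No estimate that was called changed sign. In 6-month cortex the count of 2 became 4 with the length slope as a covariate and 0 to 2 with 1 mouse left out. With only the arms compared in the fit, IPTG in 6-month striatum gave 1 member in place of 2, LacQ140_A against WT in 6-month striatum 0 in place of 1, LacQ140_2M against LacQ140 in 6-month striatum 1 in place of 0, and LacQ140_A against LacQ140 2 in place of 0 in cortex at 12 months and at 6 months. The last became 1 with DESeq2, the low-count filter, the length slope or sex as a covariate. Sex in 12-month striatum gave 2 in place of 1 with the length slope. Without the libraries high in other markers, LacQ140 against WT+IPTG in 6-month striatum gave 5 in place of 10, IPTG there 0 in place of 2, and LacQ140_A against WT 0 in place of 1 at 6 months and 1 in place of 4 at 12 months. Fewer mice entered those fits. Otherwise the cause was not tested. With the replicate block, IPTG in 6-month striatum gave 1 in place of 2 and 6-month cortex 1 in place of 2 for LacQ140 against WT+IPTG, and the block moved no other count by over 1.5 times. Low counts limit Itgax, Cst7, C3 and Clec7a, and the length slope limits long genes in 12-month cortex.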
